A study of Mus musculus with 14 samples.

Results

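This report compares S9-JAG1+ limb bud mesenchymal progenitors (LMPs) with S9-Pαhi LMPs, both sorted from mouse forelimb buds at E10.5. The members were chosen by their sample labels: all 3 S9-JAG1+ libraries and all 3 S9-Pαhi libraries, which are 6 of the 14 RNA-seq libraries of the series. The other 8 libraries, of Sox9-positive progenitors, chondroblasts and SCA-1-positive cells, entered the fit to estimate the spread between replicates. They also counted toward which genes were tested and toward the average level used to choose named genes. All embryos carried a Sox9 IRES-EGFP allele on a mixed Swiss Albino background, and embryos of both sexes were pooled. The cells of many forelimb buds were pooled for each library, so a library stands for a pool and not for an embryo, and p-values measure the spread between such pools. Both populations were sorted as live cells that lack EGFP (S9-), SCA-1 and a panel of surface markers of blood, endothelium and epithelium. Within the PDGFRα-positive cells, S9-JAG1+ cells were then gated on the NOTCH ligand JAG1 at the surface, and S9-Pαhi cells as JAG1-negative with high PDGFRα. The libraries were made from poly(A) RNA and read from a single end.

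A limb bud grows out along its proximal-distal axis under the apical ectodermal ridge, a strip of epithelium that secretes FGFs, while SHH from posterior mesenchyme patterns the anterior-posterior axis. Progenitors near the ridge are kept undifferentiated, and 5' genes of the HoxA and HoxD clusters mark the distal and posterior cells that form the hand plate. Proximal mesenchyme is exposed to retinoic acid and expresses MEIS homeodomain factors. JAG1 is a membrane-bound ligand that activates NOTCH receptors on neighboring cells, and PDGFRα is a receptor tyrosine kinase found widely in limb mesenchyme.

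The S9-JAG1+ libraries held 24421275 to 25823925 reads counted on genes and the S9-Pαhi libraries 20644076 to 26907359. Levels are given in CPM, the counts of a gene scaled by the effective library total, on which 3 counts, the most that a gene without reads could still have, stand for 0.101 to 0.149 CPM. Such limits cover counting error only. Of 24454 listed genes, 15125 had enough counts to be tested, of which 188 had no more than 3 counts in each of the 6 libraries and were kept through other populations. Genes were tested with edgeR's quasi-likelihood test and Benjamini-Hochberg adjustment over all tested genes, and a gene is said to be called, higher or lower, where the adjusted p was no more than 0.1 and the populations differed by 1.2 or more on the log2 scale (2.3-fold), the fold limit. Log2 fold changes are S9-JAG1+ minus S9-Pαhi, given ± their SE. In bulk RNA, fewer cells that express a gene cannot be told apart from less RNA per cell.

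The genes behind the gates were as follows, as a check of the labels and not as a result. Jag1 was at 227.9, 297.2 and 363.7 CPM in S9-JAG1+ replicates 1 to 3 and at 10.53, 13.2 and 11.7 CPM in the S9-Pαhi replicates. Pdgfra was at 246.1, 246.0 and 248.0 CPM in S9-JAG1+ and at 437.2, 530.1 and 360.3 CPM in S9-Pαhi, a log2 difference of -0.84 ± 0.18 that is under the fold limit. Sox9 was at 32.0 to 36.8 CPM in S9-JAG1+ and at 57.2 to 65.5 CPM in S9-Pαhi, against a mean of 437.1 CPM in the Sox9-positive progenitors of the same stage. The labels held on all of these genes, and Pdgfra transcripts were present in both populations.

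Some libraries carried markers of cells from other places. Markers of posterior axial mesoderm, the tissue that forms the tail end of the trunk, summed over the 6 tested members to 7.41, 8.68 and 19.6 CPM in S9-JAG1+ replicates 1 to 3 and to 3.94, 3.99 and 4.98 CPM in S9-Pαhi. Markers of flank, heart and coelomic lining summed over 7 genes to 54.8 CPM in S9-JAG1+ replicate 1 and to 13.7 to 16.6 CPM in the other 5 libraries. Markers of the hindlimb, summed over 5 genes, were at 71.7 CPM in S9-Pαhi replicate 3 and 49.4 CPM in S9-JAG1+ replicate 1, and at 12.1 to 24.3 CPM in the other 4. Endothelial markers summed to 17.0 to 19.4 CPM in S9-JAG1+ and 24.8 to 32.1 CPM in S9-Pαhi over 10 genes. Pecam1 was at 0.168 to 0.436 and 0.325 to 1.196 CPM. It codes for CD31, a surface marker by which cells were excluded from every sorted population, so the gate limits its level. Of the endothelial sums Erg alone made up means of 4.48 and 12.8 CPM. Erg had means of 12.5 CPM in the Sox9-positive progenitors and 42 CPM in the chondroblasts, where those of Pecam1 were 0.68 and 0.636 CPM. The source of the Erg transcripts was not tested. Of the 12 leukocyte markers 11, including Ptprc, had too few counts to be tested. Ectodermal markers summed to 9.43 to 14.3 CPM and 7.92 to 11.1 CPM over 11 genes. Myoblast markers summed to 2.57 to 4.60 CPM and 6.13 to 8.24 CPM over 10 genes. Genes of red blood cells ranged from 3.17 to 51.8 CPM and from 9.51 to 51.9 CPM, and the groups overlapped. Neural crest markers summed to 22 to 30.5 CPM and 21.7 to 23.1 CPM over 9 genes.

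Between the populations 1059 of the 15125 tested genes were called (7.00%), 390 higher in S9-JAG1+ (2.58%) and 669 lower (4.42%). At least 4-fold differences were called for 191 genes higher and 312 genes lower. With no limit on the fold change 4243 genes passed the adjusted p, 1939 higher and 2304 lower, while the median log2 fold change over all tested genes was 0.00. The libraries of the populations did not overlap for 6004 genes (39.7%), 3003 higher and 3001 lower in S9-JAG1+, so absence of overlap alone marks little here. These shares, with the 2.58% called higher and 4.42% called lower, are the background for the counts of every gene list below. Of the called genes, 1010 had no overlap. Many of the called genes were expressed at low levels: the median over the genes called higher was 3.67 CPM in S9-JAG1+ and over those called lower 2.86 CPM in S9-Pαhi, while the medians over all tested genes were 22.4 and 23.1 CPM. For 50 of the genes called higher no S9-Pαhi library had more than 3 counts, and for 99 of those called lower no S9-JAG1+ library had more. Without S9-JAG1+ replicate 1, 1129 genes were called, without S9-JAG1+ replicate 3 957, and without S9-Pαhi replicate 3 1104.

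**Figure D1:**
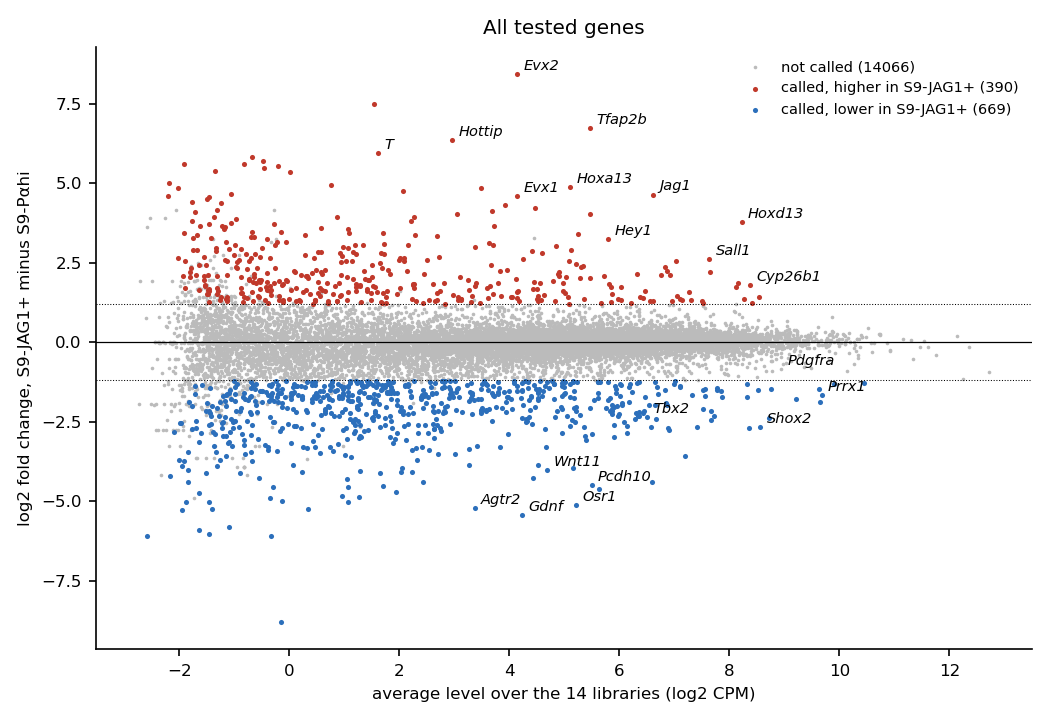
Log2 fold change of S9-JAG1+ minus S9-Pαhi against the average level over the 14 libraries for all 15125 tested genes, 1 point per gene, with red for the 390 genes called higher, blue for the 669 called lower and dotted lines at the fold limit of 1.2. Evx2, Tfap2b, Hottip, Hoxa13 and Jag1 stand at the top among well-expressed genes, and Gdnf, Agtr2, Osr1 and Pcdh10 at the bottom.

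The most strongly higher genes of S9-JAG1+ LMPs, among called genes with at least 1 log2 CPM on average over the 14 libraries and no overlap, were led by genes at the 5' ends of the HoxA and HoxD clusters. Evx2, an even-skipped homeobox gene 6.70 kb from Hoxd13 on chromosome 2, was at 25.3, 47.3 and 63.1 CPM in S9-JAG1+ and at 0, 0.188 and 0.199 CPM in S9-Pαhi. Sv2b, a synaptic vesicle glycoprotein gene, had 194, 281 and 323 counts in S9-JAG1+ and 1, 3 and 0 in S9-Pαhi, a ratio of 196 with a 95% counting interval from 76.3 to 722. Tfap2b, an AP-2 transcription factor, was at 129.8, 182.9 and 230.8 CPM in S9-JAG1+ and at 1.83, 1.35 and 1.89 CPM in S9-Pαhi, a log2 fold change of 6.75 ± 0.24 (adjusted p = 1.82e-09). These genes were close to absent from S9-Pαhi cells and abundant, for Tfap2b, in all 3 S9-JAG1+ libraries. Hottip, a long noncoding RNA that starts beside Hoxa13, was at 16.6, 29.9 and 30.4 CPM and at 0.407, 0.338 and 0.149 CPM. T (brachyury), a T-box factor best known from the primitive streak and also expressed under the ridge, was at 5.35, 10.4 and 23.8 CPM and at 0.0407, 0.414 and 0.149 CPM. S9-JAG1+ replicate 3, the highest for T, also had the highest sum of posterior axial markers, and the part of such cells in the level of T was not tested. The rest of the leading genes were Hoxa13, Jag1, Evx1 and its antisense RNA Evx1os, the sodium channel gene Scn11a (log2 fold change 4.77 ± 0.46), the gap junction gene Gja3 (4.33 ± 0.25) and the tetraspanin gene Tspan18 (4.24 ± 0.23).

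Under the same rule Osr1, Pcdh10, Gdnf and Agtr2 were among the genes lowest in S9-JAG1+ relative to S9-Pαhi. Osr1, an odd-skipped zinc finger factor of connective tissue progenitors, was at 2.06, 1.55 and 1.74 CPM in S9-JAG1+ and at 70.5, 64.2 and 50.3 CPM in S9-Pαhi (-5.11 ± 0.22, adjusted p = 3.94e-09). Pcdh10, a protocadherin, was at 4.32, 3.73 and 2.89 CPM and at 91.1, 102.4 and 50.4 CPM (-4.48 ± 0.24). In both of these the S9-Pαhi libraries lay far above the S9-JAG1+ libraries, with replicate 3 the lowest of the S9-Pαhi libraries. Gdnf, a neurotrophic factor, was at 0.0793 to 0.251 CPM in S9-JAG1+ and 4.96 to 9.43 CPM in S9-Pαhi. Agtr2, an angiotensin receptor, was at 0.171 to 0.419 and 7.22 to 14.9 CPM, and the secreted Fibin at 0.476 to 1.17 and 13.4 to 25.1 CPM. Zfp804a (-4.70 ± 0.59) and Kctd8 (-4.54 ± 0.37) followed at lower levels. The other members of this group had few reads in S9-JAG1+. Rtl3 had 0, 2 and 2 counts there and 37, 44 and 11 in S9-Pαhi. Barx2, a homeobox gene, had 0, 1 and 0 counts and 18, 19 and 2. Barx2 and Sim1 reached the average level through other populations, with means of 0.515 and 0.152 CPM in S9-Pαhi against 5.84 CPM in the chondroblasts for Barx2 and 9.30 CPM in the SCA-1-positive cells for Sim1. Sim1 had no count in any S9-JAG1+ library and 6, 3 and 2 counts in S9-Pαhi, at least 3.73-fold lower against 3 counts over the group, and it is near the limit of what this depth can show: the call was lost without any 1 of the 6 libraries (adjusted p between 0.103 and 0.215).

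**Figure D2:**
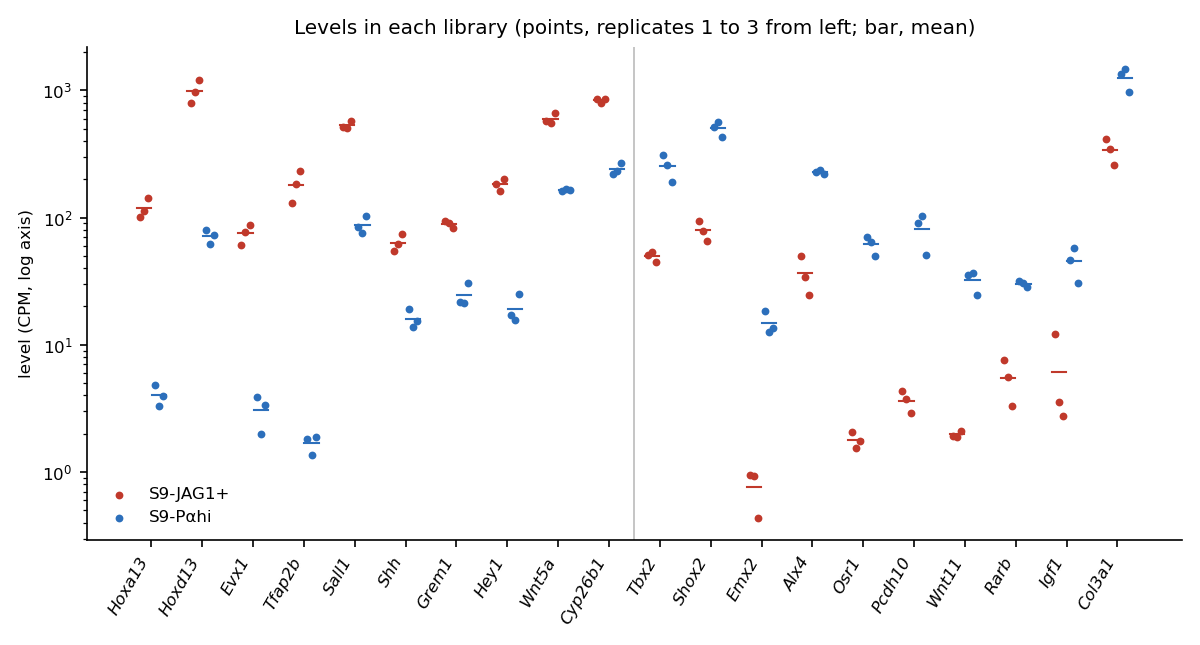
Level of 20 genes in each of the 6 libraries in CPM on a log axis, with 1 point per library, replicates 1 to 3 from left, red for S9-JAG1+ and blue for S9-Pαhi, and a bar at the mean. The 10 genes left of the line are higher in every S9-JAG1+ library, from Hoxa13 at 101.4 to 143.7 against 3.31 to 4.84 CPM to Cyp26b1 at 789.3 to 861.7 against 220.6 to 267.3 CPM, and the 10 at right are lower in every one.

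In the HoxA and HoxD clusters, whose homeodomain factors are expressed in nested domains with the 5' genes most distal and posterior, 8 of 32 tested genes (neighbors and noncoding RNAs included) were called higher and 1 lower, with a median log2 fold change of 0.30. Hoxa13, which with Hoxd13 is required to form digits, was at 101.4, 113.2 and 143.7 CPM in S9-JAG1+ and at 4.84, 3.31 and 3.94 CPM in S9-Pαhi (4.89 ± 0.19, adjusted p = 1.95e-09). Hoxd13 was at 799.5, 965.1 and 1212 CPM and at 79.6, 62.4 and 72.7 CPM (3.79 ± 0.21, adjusted p = 2.93e-08). Hoxd13 was thus clearly present in S9-Pαhi cells, while Hoxa13 had a mean of 4.03 CPM there and of 1.183 CPM in the Sox9-positive progenitors. The differences along the 5' HoxD genes were 2.11 ± 0.19 for Hoxd12, 1.36 ± 0.12 for Hoxd11 and 0.70 ± 0.13 for Hoxd10, which passed the adjusted p but not the fold limit, and -1.203 ± 0.156 for Hoxd9, which was called lower. Hoxd9 lies at the fold limit and was no longer called without S9-JAG1+ replicate 2 (-1.17), S9-JAG1+ replicate 3 (-1.13) or S9-Pαhi replicate 3 (-1.04). In HoxA the step lay between Hoxa13 and Hoxa11, which was at 293.0, 336.4 and 298.7 CPM against 132.5, 131.1 and 180.3 CPM (1.06 ± 0.15, under the fold limit), while Hoxa10 differed by 0.31 ± 0.10 and Hoxa9 by -0.06 ± 0.11. None of the 7 genes of 3' HoxA and of the 4 of 3' HoxD was called, and their medians were -0.52 and -0.34.

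The genes just outside the 5' ends moved with them. Evx1, 52.6 kb from Hoxa13 on chromosome 6, was at 60.8, 77.3 and 87.2 CPM in S9-JAG1+ and at 3.90, 1.99 and 3.39 CPM in S9-Pαhi (4.61 ± 0.29). Its antisense RNA Evx1os was at 31.9 to 61.6 and 0.978 to 2.36 CPM. The RefSeq spans of these genes overlap by 1335 bases, and the sources used here do not say if reads were counted by strand, so their reads cannot be fully told apart. The same holds for Hoxa11os, called higher at 347.8, 552.3 and 455.0 against 96.9, 81.7 and 111.0 CPM (2.23 ± 0.17), and Hoxa11, whose spans share 568 bases. Farther out on the 5' sides, Lnpk, which lies on the far side of Evx2, had a log2 fold change of 0.79, and Hibadh, beyond Evx1, one of 1.13. Both passed the adjusted p under the fold limit. The neighbors at the 3' ends were at 0.05 for Mtx2, beside HoxD, and -0.45 for Skap2, beside HoxA, and neither was called. RefSeq places Hoxa13 at chr6:52258853-52260880, Hoxa11 at chr6:52242105-52245810 and Hoxd13 at chr2:74668225-74671603 (GRCm38).

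HoxB and HoxC genes, which are used mainly along the trunk, went the other way: 9 of 16 tested genes were called lower and 1 higher, with a median of -1.73. Hoxb3, the most abundant of them in S9-Pαhi, was at 13.3, 10.6 and 10.0 CPM in S9-JAG1+ and at 57.7, 57.7 and 51.0 CPM in S9-Pαhi (-2.30 ± 0.49, adjusted p = 0.0038). Hoxb2 (-2.07), Hoxb4 (-2.14), Hoxb5 (-2.59), Hoxb6 (-2.17) and Hoxb7 (-1.50) were called lower as well, and so were Hoxc4 (-2.42), Hoxc5 (-2.40) and Hoxc6 (-1.97). Except for Hoxb7, whose adjusted p was 0.0815, these had adjusted p-values between 0.000148 and 0.0248. Hoxb9 was the single HoxB gene called higher, at 9.42, 7.25 and 8.96 CPM against 2.60, 2.48 and 5.73 CPM (1.26 ± 0.48, adjusted p = 0.0783), and that call was lost without any of 5 libraries, among them S9-Pαhi replicate 1 (adjusted p = 0.243). Hoxb8 was not called (-1.26 ± 0.72, adjusted p = 0.247), and the 4 tested posterior HoxC genes, Hoxc8 to Hoxc11, were at 7.92 CPM or less with overlapping groups. Paralogous Hox genes share sequence, and 1 position was kept for a read that fits several.

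**Figure D3:**
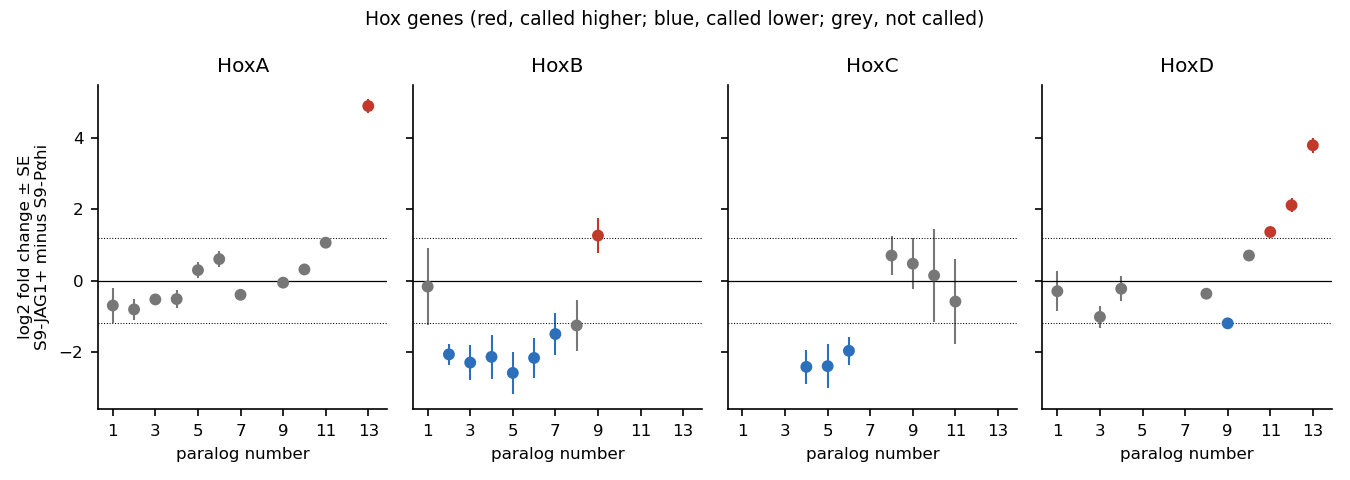
Log2 fold change (S9-JAG1+ minus S9-Pαhi) ± SE of each tested HoxA, HoxB, HoxC and HoxD gene against its paralog number, with red for genes called higher, blue for genes called lower, grey for genes not called and dotted lines at the fold limit of 1.2. In HoxA and HoxD the values climb toward paralog 13, to 4.89 and 3.79, while Hoxb2 to Hoxb7 and Hoxc4 to Hoxc6 lie at -1.50 or below.

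Among transcription factors of the limb axes, 6 of 45 tested were called higher and 18 lower, with a median of -0.72. The proximal factors were the most uniform: 7 of 8 were called lower and no groups overlapped, with a median of -2.25. Meis2, a homeodomain factor of the proximal limb, was at 45.0, 24.0 and 15.2 CPM in S9-JAG1+ and at 190.2, 192.9 and 161.6 CPM in S9-Pαhi (-2.70 ± 0.52, adjusted p = 0.00175), and Meis1 was at 21.8, 9.97 and 7.25 CPM and at 83.3, 88.5 and 66.3 CPM (-2.61 ± 0.45). For both, replicate 1 was the highest of the S9-JAG1+ libraries. Shox2, a homeobox gene needed for the proximal skeleton, was at 93.9, 78.8 and 65.9 CPM and at 518.5, 562.3 and 427.2 CPM (-2.66 ± 0.18, adjusted p = 1.96e-07). Emx2, needed for the shoulder blade, was at 0.942, 0.922 and 0.436 CPM and at 18.3, 12.7 and 13.5 CPM (-4.28 ± 0.42), and Emx2os, which starts 54 bases away, had 2, 2 and 3 counts and 75, 69 and 26 counts. The MEIS partner gene Pbx3 (-1.89 ± 0.12) was lower too, while Pbx2 was at -0.53, under the fold limit.

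Of 9 anterior factors 5 were called lower and 1 higher. Alx4, which restricts posterior identity in the anterior limb bud, was at 50.3, 34.2 and 24.6 CPM in S9-JAG1+ and at 230.0, 235.4 and 218.3 CPM in S9-Pαhi (-2.65 ± 0.25, adjusted p = 4.85e-06). Pax1, a marker of the anterior-proximal bud, was at 6.42, 19.2 and 10.7 CPM and at 112.0, 107.9 and 42.4 CPM (-2.85 ± 0.74). The Iroquois genes Irx3 (-2.17 ± 0.62) and Irx5 (-2.31 ± 0.59) and Pax9 (-2.70 ± 0.37) were also lower. Gli3, the repressor of posterior fate, differed by -0.18 (adjusted p = 0.148).

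The posterior factors split, with 3 of 7 called higher, Tfap2b among them, and 2 lower. Sall1, a spalt-like zinc finger factor, was at 518.4, 510.0 and 572.4 CPM in S9-JAG1+ and at 83.8, 76.3 and 102.4 CPM in S9-Pαhi (2.61 ± 0.17, adjusted p = 1.61e-07), and Tfap2c was at 102.5, 109.6 and 103.0 CPM and at 20.9, 19.1 and 34.0 CPM (2.10 ± 0.22). In contrast, the T-box repressor Tbx2 was at 50.7, 53.9 and 44.4 CPM and at 311.3, 259.8 and 191.2 CPM (-2.36 ± 0.16, adjusted p = 2.54e-07), and Tbx3 was at 65.7, 40.9 and 34.7 CPM and at 262.7, 284.1 and 212.1 CPM (-2.43 ± 0.22). Tbx2 and Tbx3 are expressed in stripes at both the anterior and the posterior margin of the bud. Hand2, which lies upstream of Shh in the posterior bud, was at 353.3, 400.8 and 430.0 CPM and at 346.2, 288.0 and 298.5 CPM, a difference of 0.34 ± 0.13 that was not called.

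Among the distal factors Msx1 had overlapping groups, at 226.3 to 286.9 CPM in S9-JAG1+ and 267.8 to 294.8 CPM in S9-Pαhi (-0.13 ± 0.16), while its relative Msx2 was lower, at 18.1, 24.9 and 20.2 CPM and 94.3, 98.0 and 77.2 CPM (-2.09 ± 0.19, adjusted p = 3.08e-06). Lhx2 (-0.72), Lhx9 (-0.45), Sall4 (1.14) and Mycn (0.54) passed the adjusted p without reaching the fold limit. The LIM cofactor gene Ldb2 was lower (-2.08 ± 0.12), and the dorsal factor Lmx1b was not called (-0.31, adjusted p = 0.161). En1, a factor of ventral ectoderm, was called higher with 7.24, 1.55 and 1.31 CPM against 0.407 to 0.648 CPM, and this rested on S9-JAG1+ replicate 1, since without it the adjusted p was 0.102. Of general limb mesenchyme genes, Prrx1, a paired-type homeobox gene, was at 468.7, 421.8 and 401.7 CPM and at 1294, 1486 and 1303 CPM (-1.66 ± 0.12), and Tbx18 was lower by a log2 fold change of -2.68 ± 0.22. The forelimb gene Tbx5 was at 181.0 to 192.8 and 246.7 to 315.3 CPM (-0.64 ± 0.15, under the fold limit).

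In the Hedgehog pathway 3 of 29 tested genes were called higher and 3 lower, against 2.58% and 4.42% of all tested genes, with a median of -0.04. The ligand gene Shh was at 54.2, 62.4 and 74.3 CPM in S9-JAG1+ and at 19.0, 13.7 and 15.5 CPM in S9-Pαhi (1.99 ± 0.18, adjusted p = 2.36e-06), and its mean in the Sox9-positive progenitors was 0.219 CPM. Transcripts of the ligand were therefore found in both JAG1-positive and JAG1-negative LMPs. Of the genes that the pathway itself induces, Ptch1 at 203.5, 209.2 and 244.6 against 104.1, 97.9 and 88.9 CPM (1.176 ± 0.115) and Gli1 at 107.8, 167.6 and 122.2 against 72.8, 54.4 and 54.5 CPM (1.13 ± 0.20), stood just under the fold limit with adjusted p-values of 5.63e-06 and 0.00111. The coreceptor gene Cdon was lower, at 60.8, 58.1 and 39.3 CPM and 258.8, 308.2 and 217.9 CPM (-2.31 ± 0.17), as was Scube3 of SHH release (-1.96 ± 0.16). Scube2 had 0, 1 and 0 counts and 8, 10 and 5 counts. The coreceptor genes Boc (-0.90 ± 0.13) and Gas1 (-0.91) and the effector Gli2 (-1.19 ± 0.10) passed the adjusted p but not the fold limit, and Hhip, a secreted inhibitor, had overlapping groups at 1.58 to 3.60 and 2.75 to 3.38 CPM. Without S9-JAG1+ replicate 1, 5 genes of the list were called higher in place of 3.

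In the FGF pathway 4 of 34 genes were called higher and 2 lower, against 2.58% and 4.42% of all tested genes, with a median of -0.19. Of 16 feedback and target genes 3 were called higher and none lower, with no overlap in favor of S9-JAG1+ for 10 and of S9-Pαhi for 4. Over all 15125 tested genes, the libraries did not overlap for 3003 genes higher and 3001 lower. Spry4, a feedback inhibitor of receptor tyrosine kinase signaling, was at 164.5, 145.0 and 164.8 CPM in S9-JAG1+ and at 36.5, 36.1 and 62.1 CPM in S9-Pαhi (1.82 ± 0.18, adjusted p = 7.67e-06). Spry1 (1.27 ± 0.16) and Spry2 (1.25 ± 0.14) were called higher, although both fell under the fold limit without S9-JAG1+ replicate 3 (1.19 and 1.17) or S9-Pαhi replicate 2 (1.10 and 1.12). The phosphatase gene Dusp6 stood at 627.0, 483.3 and 565.4 against 218.0, 187.4 and 326.9 CPM (1.19 ± 0.16, adjusted p = 0.000101), just under the limit, and Etv4 (0.93 ± 0.16) and Etv5 (0.61 ± 0.13), transcription factors induced by FGF, passed the adjusted p. All 6 genes listed as receptors, among them the FGF-binding protein gene Fgfbp3, had negative log2 fold changes with no overlap. Of these, 1 was called: Fgfr2, at 24.4, 18.3 and 11.9 CPM and 100.2, 104.5 and 68.8 CPM (-2.33 ± 0.23). Fgfr1, the most abundant receptor gene, was at 374.4 to 388.0 and 419.2 to 495.6 CPM (-0.25 ± 0.09). The mesenchymal ligand gene Fgf10 was at 92.0 to 103.2 and 44.7 to 60.4 CPM (0.91 ± 0.13, under the fold limit), and Fgf8, the main ligand of the ridge, was at 0.872 CPM or less in all 6 libraries. Fgf17 was called higher and Fgf5 lower at 1.51 CPM or less, and Fgf17 overlapped between the groups and was called without S9-JAG1+ replicate 1 only (without S9-JAG1+ replicate 3 its value was 1.22, adjusted p = 0.384). Without S9-Pαhi replicate 2 or without S9-JAG1+ replicate 3, 1 gene of the FGF list was called higher in place of 4.

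BMP pathway genes were called lower more often than higher, 12 and 2 of 54, against 4.42% and 2.58% of all tested genes, with a median of -0.23. Grem1, a secreted BMP antagonist that keeps the signaling loop between SHH and the ridge running, was at 93.3, 90.3 and 82.2 CPM in S9-JAG1+ and at 21.7, 21.2 and 30.7 CPM in S9-Pαhi (1.85 ± 0.21, adjusted p = 1.75e-05). Hey1, a HES-related repressor that is a target of both BMP and NOTCH signaling, was the other gene called higher. The ligand genes Bmp4, at 94.5 to 102.3 and 110.0 to 122.6 CPM (-0.24 ± 0.14), Bmp7 (0.02 ± 0.09) and Bmp2 (1.10 ± 0.34, adjusted p = 0.0332) were not called, and Gdf6 was lower, at 3.47, 1.68 and 1.82 CPM against 10.9, 14.97 and 15.5 CPM (-2.57 ± 0.33). Among the other antagonists and modulators Sostdc1 (-2.86 ± 0.31), Htra1 (-2.19 ± 0.42), Bmper (-2.18 ± 0.69) and Nbl1 (-1.69 ± 0.25) were called lower, and Nog had overlapping groups near 1 CPM. The receptor gene Bmpr1b, linked to cartilage formation, was at 4.71, 3.98 and 5.11 CPM and at 17.2, 20.9 and 18.3 CPM (-2.03 ± 0.16). The target Id2 was lower (-1.37 ± 0.12), and Id1 (-0.40) and Id3 (-0.46) passed the adjusted p under the fold limit. Gdf5 (-1.33), Gdf7 (-1.34) and Smad9 (-1.56) completed the named calls at 5.53 CPM or less. Gdf5 was not called without S9-JAG1+ replicate 1 (-1.19), Bmper not without S9-Pαhi replicate 1 or S9-JAG1+ replicate 2 (adjusted p = 0.13 and 0.116), and Gdf7 not without S9-Pαhi replicate 1 or 2 or S9-JAG1+ replicate 2 or 3 (adjusted p between 0.13 and 0.218). Without S9-Pαhi replicate 2, 4 genes of the BMP list were called higher in place of 2.

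In the WNT pathway 4 of 60 genes were called higher and 9 lower, against 2.58% and 4.42% of all tested genes, with a median of -0.22. Wnt5a, a ligand that directs outgrowth of the distal mesenchyme, was at 573.2, 550.4 and 659.8 CPM in S9-JAG1+ and at 162.3, 167.2 and 163.8 CPM in S9-Pαhi (1.85 ± 0.13, adjusted p = 3.68e-07). Wnt11, a ligand of the same non-canonical branch, was at 1.93, 1.89 and 2.10 CPM and at 35.2, 36.7 and 24.5 CPM (-4.02 ± 0.18, adjusted p = 3.94e-09). The pair thus lay in opposite directions with no overlap in either. Of 16 secreted modulators 6 were called lower in S9-JAG1+ and none higher: the R-spondins Rspo1 (-2.60 ± 0.74), Rspo2 (-1.73 ± 0.26) and Rspo4 (-2.45 ± 0.34), which strengthen WNT signals, and the antagonists Wif1 (-2.56 ± 0.24), Dkk1 (-1.998 ± 0.199) and Sfrp2 (-1.30 ± 0.14). Rspo3 (0.51, adjusted p = 0.024) and the antagonist Frzb (0.57, adjusted p = 0.0405) passed the adjusted p in the other direction, under the fold limit and with no overlap. The ligand Wnt9a (-1.54 ± 0.28) and the receptor gene Ror1 (-1.82 ± 0.36) were lower too. The target Axin2 differed by -0.20 and Lef1 by 0.15, and neither was called. Sp8, a zinc finger factor of the ridge, had 33, 50 and 75 counts against 0, 3 and 0, a ratio of 51.8 with a 95% counting interval from 17.4 to 254. Sp5 was at 0.771, 0.545 and 3.33 CPM against 0.149 to 0.226 CPM, with S9-JAG1+ replicate 3 far above the other two. Wnt2, at 15.2, 1.68 and 2.34 CPM against 0.447 to 1.89 CPM, overlapped between the groups and was called through S9-JAG1+ replicate 1 (without it 0.87, adjusted p = 0.422). It was not called without S9-Pαhi replicate 1 or 2 either (adjusted p = 0.157 and 0.12).

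Among retinoic acid genes Cyp26b1 was higher in S9-JAG1+, and Rarb, Stra6 and Crabp2 were lower. Cyp26b1, the enzyme that breaks retinoic acid down in distal mesenchyme, was at 850.7, 789.3 and 861.7 CPM in S9-JAG1+ and at 220.6, 234.2 and 267.3 CPM in S9-Pαhi (1.79 ± 0.12, adjusted p = 1.58e-07). Rarb, a receptor gene that retinoic acid induces, was at 7.62, 5.57 and 3.29 CPM and at 31.7, 30.6 and 28.4 CPM (-2.46 ± 0.42), the retinol importer Stra6 at 23.2, 24.2 and 19.6 CPM and at 101.4, 84.7 and 77.6 CPM (-1.98 ± 0.15), and the binding protein gene Crabp2 at 167.6 to 227.0 and 525.1 to 591.8 CPM (-1.49 ± 0.19). In all, 1 of 17 tested genes was called higher and 3 lower, against 2.58% and 4.42% of all tested genes, with a median of -0.53. Without S9-JAG1+ replicate 2, 4 genes were called higher, and without S9-Pαhi replicate 3, 2. The carrier protein gene Rbp4 passed the adjusted p under the fold limit (1.177, adjusted p = 0.0159). The synthesis gene Aldh1a2 was not called (-0.93, adjusted p = 0.187).

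**Figure D4:**
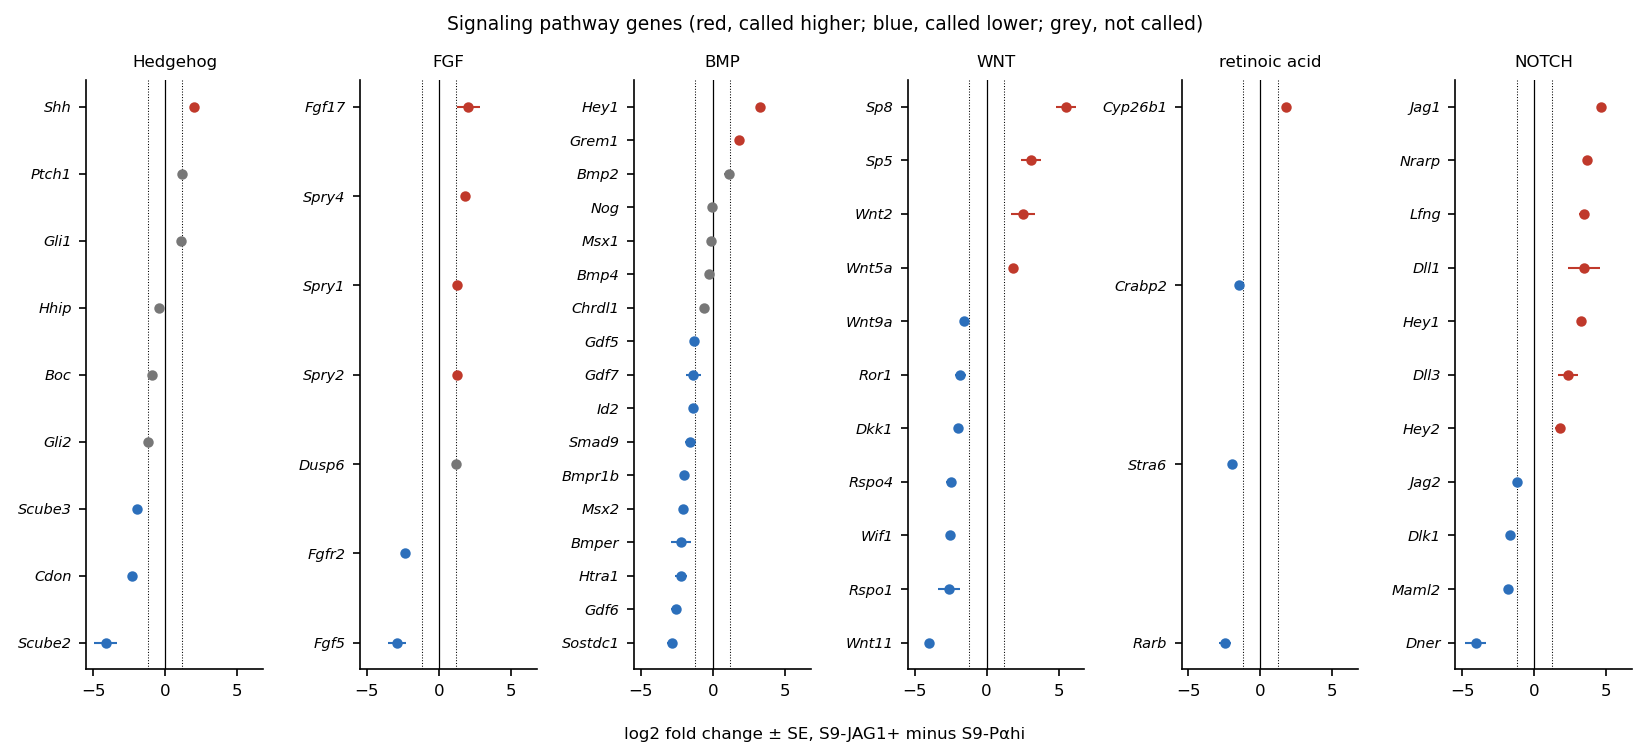
Log2 fold change (S9-JAG1+ minus S9-Pαhi) ± SE of Hedgehog, FGF, BMP, WNT, retinoic acid and NOTCH pathway genes that were called (for each role up to 4 per direction) or that the study discusses, with some called genes left out and red for called higher, blue for called lower, grey for not called and dotted lines at the fold limit of 1.2. Shh, Spry4, Grem1, Wnt5a, Cyp26b1, Nrarp and Hey1 lie at 1.79 or above, and Cdon, Fgfr2, Bmpr1b, Wnt11 and Rarb at -2.03 or below.

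Leaving aside Jag1, on which the cells were gated, 6 of 26 tested NOTCH pathway genes were called higher and 4 lower, with a median of 0.19, and the calls of Dll1 and Dll3 among the 6 rest on 1 library (below 1 on the log2 scale without it). Of 7 tested targets 3 were called higher and none lower, against 2.58% and 4.42% of all tested genes. For 6 of 7 every S9-JAG1+ library was above every S9-Pαhi library, as for 3003 of all 15125 tested genes. Among these 6 Hes6 differed by only 0.27, and the other target, Heyl (-0.17), overlapped between the groups. Nrarp, a feedback inhibitor that NOTCH induces, was at 30.9, 32.7 and 39.3 CPM in S9-JAG1+ and at 2.07, 2.71 and 3.49 CPM in S9-Pαhi (3.65 ± 0.23, adjusted p = 9.63e-08). Hey1 was at 183.5, 161.3 and 201.9 CPM and at 17.0, 15.6 and 25.1 CPM (3.25 ± 0.17, adjusted p = 1.95e-08), and Hey2 at 6.55, 3.10 and 3.69 CPM and at 1.22, 1.13 and 1.59 CPM (1.76 ± 0.35). Hes1, the most widely used target, was at 40.3, 39.1 and 49.1 CPM and at 29.0, 28.6 and 34.8 CPM (0.48 ± 0.15, under the fold limit). The glycosyltransferase gene Lfng, which alters the response of NOTCH receptors to JAG and DLL ligands, was at 3.81, 3.27 and 5.07 CPM and at 0.203, 0.376 and 0.548 CPM (3.45 ± 0.32). The receptor genes were not called: Notch1 differed by 0.21 ± 0.21 and Notch2 by -0.30 ± 0.12. Dll1 and Dll3 were called higher through 1 library. Dll1 was at 0.300, 0.293 and 8.05 CPM in S9-JAG1+, and without replicate 3 its log2 fold change was 0.17 (adjusted p = 0.922). It was not called without S9-Pαhi replicate 1 or 3 either (adjusted p = 0.145 and 0.114). Dll3 was at 1.28, 1.09 and 9.43 CPM, and without replicate 3 its value was 0.60 (adjusted p = 0.45). That library also had the highest level of Tbx6, a presomitic factor, at 5.59 CPM against 1.41 CPM or less in the other 5. The ligands Jag2 (-1.22 ± 0.18) and Dlk1 (-1.69 ± 0.28) were lower, Jag2 at the fold limit (-1.18 without S9-JAG1+ replicate 1), and Dner had 0, 1 and 0 counts against 9, 7 and 6. The coactivator Maml2 was lower (-1.82 ± 0.17).

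Promoter windows of Lfng, Hey2 and Nrarp, NOTCH pathway genes called higher, are shown because RBPJ, the DNA-binding partner of activated NOTCH, recognizes a short motif. Each window runs from 250 bases before to 50 after the gene start (RefSeq, GRCm38.p6), 5' to 3' on the gene's strand, with capitals for matches to GTGGGAA on either strand (a minus-strand match reads TTCCCAC). The windows are chr5:140607091-140607390 (plus strand) for Lfng, chr10:30842734-30843033 (minus strand) for Hey2 and chr2:25180508-25180807 (plus strand) for Nrarp.
Lfng: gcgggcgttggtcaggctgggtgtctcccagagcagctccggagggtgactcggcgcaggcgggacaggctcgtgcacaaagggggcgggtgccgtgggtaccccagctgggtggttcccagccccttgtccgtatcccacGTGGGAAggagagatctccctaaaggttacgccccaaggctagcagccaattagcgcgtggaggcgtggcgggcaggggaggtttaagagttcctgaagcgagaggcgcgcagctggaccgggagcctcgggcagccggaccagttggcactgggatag
Hey2: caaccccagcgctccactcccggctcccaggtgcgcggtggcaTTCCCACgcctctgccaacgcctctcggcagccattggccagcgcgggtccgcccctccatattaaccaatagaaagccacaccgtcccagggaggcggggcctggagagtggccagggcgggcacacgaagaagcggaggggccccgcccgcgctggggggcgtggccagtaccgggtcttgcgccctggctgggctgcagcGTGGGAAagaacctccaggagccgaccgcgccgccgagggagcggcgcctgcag
Nrarp: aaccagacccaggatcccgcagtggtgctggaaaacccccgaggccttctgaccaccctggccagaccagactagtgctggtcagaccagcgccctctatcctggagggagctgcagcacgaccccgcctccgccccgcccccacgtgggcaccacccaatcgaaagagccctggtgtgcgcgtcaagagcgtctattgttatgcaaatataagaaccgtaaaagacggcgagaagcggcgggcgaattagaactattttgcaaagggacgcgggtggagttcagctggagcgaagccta
The Lfng window held 1 match, the Hey2 window 2 on opposite strands and the Nrarp window none, and the Jag1 window held none either. The window of Hes5, a NOTCH target with at most 1 count in any of the 6 libraries and so not tested, held 2 matches on opposite strands, as that of Hey2 did. For comparison, 2097 of all 32851 windows (6.38%) held at least 1 match. A match is a description of these letters and not of binding. Hey1 was not in the table of windows.

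In the PDGF, IGF and TGF-beta families 1 of 32 genes was called higher and 5 lower, against 2.58% and 4.42% of all tested genes, with a median of -0.28. Igf1, a secreted growth factor, was at 12.2, 3.52 and 2.74 CPM in S9-JAG1+ and at 46.7, 58.1 and 30.7 CPM in S9-Pαhi (-2.88 ± 0.51), and the binding protein gene Igfbp4 was at 651.9, 511.3 and 517.0 CPM and at 1513, 1350 and 1320 CPM (-1.32 ± 0.13). Igf2, one of the most abundant transcripts, was at 2198 to 3018 CPM and 5421 to 5629 CPM (-1.16 ± 0.17, adjusted p = 0.000269), just under the fold limit. Tgfb2 was lower (-2.18 ± 0.23), as was Igfbp3 (-1.37 ± 0.32). The receptor-like gene Pdgfrl was called higher at 7.29 to 8.39 against 2.19 to 4.32 CPM (1.24 ± 0.21), but not without S9-Pαhi replicate 3 (1.03) or S9-JAG1+ replicate 1, where it passed the adjusted p (0.00311) but not the fold limit. Inhba had no count in S9-JAG1+ and 7, 4 and 2 counts in S9-Pαhi, at least 4.41-fold lower against 3 counts over the group, and was not called without S9-Pαhi replicate 1, S9-JAG1+ replicate 2 or S9-JAG1+ replicate 3 (adjusted p = 0.138, 0.104 and 0.109). Without S9-JAG1+ replicate 1, 8 genes of these families were called lower in place of 5 and none higher.

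Cartilage genes showed no common direction, with positive log2 fold changes for 17 of 36 and negative ones for 16. Of the 36, 3 were called higher and 4 lower, against 2.58% and 4.42% of all tested genes. The median of 0.00 fell on members whose log2 fold change was neither positive nor negative, so it does not describe a direction. Col2a1, the main collagen of cartilage, was at 23.2, 30.97 and 23.7 CPM in S9-JAG1+ and at 113.9, 94.6 and 60.8 CPM in S9-Pαhi (-1.79 ± 0.24), both far below its mean of 989.5 CPM in the Sox9-positive progenitors. Foxc2, a forkhead factor, was higher at 7.62, 7.84 and 13.4 against 0.935, 1.13 and 1.54 CPM (3.01 ± 0.30), and Runx3 (1.96 ± 0.33) and Papss2 (1.49 ± 0.41) were higher as well. Runx2, the master regulator of osteoblasts, was lower at 8.48, 13.8 and 13.0 against 39.8, 33.8 and 14.4 CPM (-1.32 ± 0.38), but not without S9-Pαhi replicate 1 or S9-JAG1+ replicate 1 (-1.04 and -1.13). Acan, Nog and Adamts12 were not called, with overlapping groups, and Chrdl1 passed the adjusted p under the fold limit (-0.63 ± 0.17).

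Of 20 tendon and connective tissue genes 6 were called lower and 3 higher, with a median of -0.81. Beside Osr1, the lower genes included Osr2 (-2.07), Nr2f1, a nuclear receptor gene, at 16.4, 11.9 and 4.56 against 78.6, 62.1 and 64.9 CPM (-2.65 ± 0.45), Eya2, a transcriptional coactivator (-2.73 ± 0.26), and Scx, the tendon progenitor factor, at 16.3, 18.3 and 14.1 against 52.5, 49.2 and 33.4 CPM (-1.48 ± 0.15). The genes called higher were weaker. Tnc was at 84.3, 21.7 and 10.8 CPM against 9.33 ± 1.46 CPM (mean ± SD, n = 3), and Thbs4 at 8.22, 1.47 and 2.02 CPM against 0.976 to 1.203 CPM, and without S9-JAG1+ replicate 1, the library with the most flank and heart markers, their values were 0.80 (adjusted p = 0.103) and 0.72 (adjusted p = 0.0828). Foxf2 was at 1.35 to 2.06 against 0.564 to 0.813 CPM and was under the limit without S9-JAG1+ replicate 1 (1.15) or S9-Pαhi replicate 2 (1.16). Without S9-JAG1+ replicate 1 no gene of the list was called higher.

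Extracellular matrix genes were called lower for 15 of 72 and higher for 6, with a median of -0.37. Among collagens 7 of 22 were lower and 1 higher. Col3a1 was at 416.7, 343.5 and 258.7 CPM in S9-JAG1+ and at 1333, 1460 and 964.4 CPM in S9-Pαhi (-1.88 ± 0.20, adjusted p = 9.91e-06), Col1a1 at 70.6 to 122.9 and 237.6 to 344.7 CPM (-1.73 ± 0.20) and Col12a1 at 5.35 to 11.9 and 23.5 to 55.4 CPM (-2.31 ± 0.35). Col1a1 and Col3a1 are the fibrillar collagens of loose connective tissue. Col13a1, a transmembrane collagen, was the exception, at 8.17 to 12.6 and 3.38 to 5.12 CPM (1.34 ± 0.24), with 1.19 without S9-JAG1+ replicate 1. Col14a1 was lower at 4.88, 1.17 and 1.03 against 7.85 to 8.57 CPM, but not without S9-JAG1+ replicate 2 or 3 (adjusted p = 0.105 and 0.104). Nid1, a basement membrane protein gene, was higher at 411.4, 410.3 and 385.9 against 145.3, 152.4 and 191.8 CPM (1.30 ± 0.11), and Thbs2 (-2.74 ± 0.28), Fbln5 (-1.49 ± 0.19) and Fbn1 (-1.28 ± 0.19) were lower, Fbn1 only just, with -1.11 without S9-Pαhi replicate 2 and -1.09 without S9-JAG1+ replicate 3. Proteases split within the ADAMTS family: Adamts17 was higher, at 43.5, 46.2 and 55.3 against 7.24, 6.51 and 5.53 CPM (2.91 ± 0.19), as was Adamts5 (1.71 ± 0.29), and Adamts19 (-1.63 ± 0.20), Adamts16, at 0.325 CPM or less, and Adamts20 (-1.30 ± 0.32) were lower. Adamts20 fell under the fold limit without S9-Pαhi replicate 2 (-1.13) or S9-JAG1+ replicate 3 (-1.16). Timp3, a tissue inhibitor of metalloproteases, was higher (1.43 ± 0.11) and Mmp11 lower (-1.60 ± 0.13). Ccn1 (-1.44 ± 0.36) was not called without S9-Pαhi replicate 1 (-1.09), which also had the highest sum of immediate early genes, 1944 against 951.2 to 1225 CPM. Ccn3 was called higher at 0.385 CPM or less, with overlap, and not without S9-JAG1+ replicate 1 or S9-Pαhi replicate 1 or 2 (adjusted p = 0.109, 0.122 and 0.119).

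Of the adhesion and guidance genes 8 of 68 were called higher and 22 lower, with a median of -0.43. Of 24 cadherin and adhesion genes 12 were lower and 2 higher. Beside Pcdh10 these included Pcdh17, at 1.71, 1.22 and 1.51 against 10.1, 16.1 and 10.9 CPM (-3.07 ± 0.20), Pcdh9 (-2.85), Cdh13 (-2.79), Cdh6 (-2.50) and Alcam (-2.08), while Cdh22 was higher at 10.7, 10.7 and 12.1 against 1.95, 0.940 and 0.996 CPM (3.10 ± 0.26). Pcdh8 was lower (-3.34 ± 0.62), with its highest S9-JAG1+ level, 3.45 CPM, in replicate 3. Cdh9 was called lower and Cdh20 higher at 0.674 CPM or less, and Cdh20 not without S9-JAG1+ replicate 3 or S9-Pαhi replicate 1 or 2 (adjusted p between 0.204 and 0.27). Eph receptors, which sort cells by contact, lay in both directions. Epha4 was at 532.5, 616.5 and 702.0 CPM in S9-JAG1+ and at 172.9, 216.4 and 165.8 CPM in S9-Pαhi (1.74 ± 0.14), and Epha2 was at 73.0, 89.9 and 90.1 CPM and at 13.4, 9.36 and 13.2 CPM (2.82 ± 0.15, adjusted p = 3.03e-08). Epha8 (2.59 ± 0.30) and Epha1 (1.53 ± 0.13) were higher as well. Epha7, at 20.7, 19.5 and 19.3 against 85.4, 116.8 and 74.4 CPM (-2.22 ± 0.14), Epha3 (-1.71 ± 0.21) and the ligand Efnb2 (-1.65 ± 0.17) were lower. Among guidance genes the netrin Ntn1 was at 6.38, 6.71 and 5.95 against 38.6, 29.3 and 20.5 CPM (-2.22 ± 0.33), Sema3d at 0.251 CPM or less against 1.55 to 2.93 CPM, and the netrin receptor genes Unc5c (-1.63 ± 0.28) and Dcc (-1.75 ± 0.41) were lower too. Slit3 (1.31 ± 0.12) and the semaphorin receptor gene Nrp2 (1.25 ± 0.12) were higher, Nrp2 only just, with 1.14 without S9-JAG1+ replicate 3 and 1.17 without S9-Pαhi replicate 3.

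**Figure D5:**
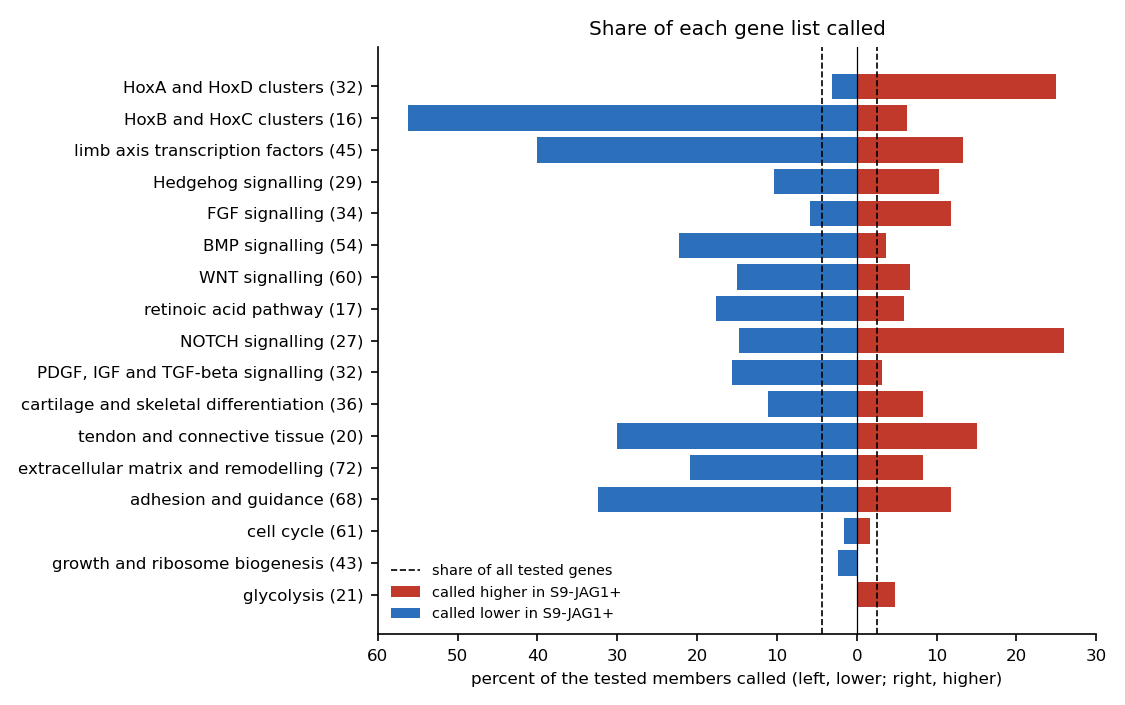
Percent of the tested members of 17 gene lists called higher (red, to the right) or lower (blue, to the left) in S9-JAG1+, with the number tested in parentheses and dashed lines at the shares over all tested genes, 2.58% and 4.42%. HoxB and HoxC genes and limb axis factors reach furthest to the left, with 9 of 16 and 18 of 45 members, and HoxA and HoxD genes, with 8 of 32, and NOTCH genes, with 7 of 27 (6 of 26 without the gated Jag1), furthest to the right.

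Cell cycle genes differed little, with 1 of 61 called higher and 1 lower, against 2.58% and 4.42% of all tested genes, and a median of 0.10. Cdk6, a G1 kinase gene, was at 164.3, 153.1 and 178.5 CPM in S9-JAG1+ and at 51.2, 53.4 and 58.3 CPM in S9-Pαhi (1.61 ± 0.09, adjusted p = 5.43e-08), and Cdkn2c, which codes for an inhibitor of CDK4 and CDK6, was at 1.33, 0.754 and 0.793 CPM and at 2.60, 3.76 and 3.09 CPM (-1.72 ± 0.26). The 21 genes of G2 and mitosis had a median of 0.12 and none was called. Genes of ribosome biogenesis showed a small difference in the same direction: all 30 had positive log2 fold changes, with a median of 0.44. Of the 30, 23 passed the adjusted p, as did 1939 of all 15125 tested genes in that direction, and none reached the fold limit. The groups overlapped for 5 of the 30. Summed over the 30 genes the level was 7757, 7904 and 7543 CPM in S9-JAG1+ and 5537, 5563 and 6516 CPM in S9-Pαhi. Mycn, a regulator of growth in limb progenitors, was at 229.4, 213.4 and 244.3 CPM and at 142.3, 126.7 and 202.6 CPM (0.54 ± 0.16). The MYC antagonist Mxd4 was lower (-1.30 ± 0.14), though only -1.14 without S9-Pαhi replicate 1. Of 21 glycolysis genes 1 was called, the glucose transporter gene Slc2a3, at 34.0, 41.7 and 54.0 against 10.6, 12.4 and 11.7 CPM (1.91 ± 0.16).

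Of symbol families with at least 10 tested genes, the highest shares of called genes were in Hoxb (7 of 10 including antisense genes, 1 higher and 6 lower), Pcdh (6 of 12, all lower), Tbx (6 of 12, 1 higher and 5 lower), Cdh (8 of 17, 2 higher and 6 lower), Cldn (5 of 12, 1 higher and 4 lower) and Adamts (6 of 18, 2 higher and 4 lower).

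Lists for other sources of signal were counted in the same way. Of the 6 tested genes of posterior axial mesoderm 4 were called higher: Cdx2, with 29, 40 and 96 counts in S9-JAG1+ and 0, 3 and 0 in S9-Pαhi (ratio 54.1, 95% counting interval 18.2 to 265), Nkx1-2, with 24, 18 and 33 counts against 3, 1 and 0, Tbx6 and Fgf17. Cdx2 and Nkx1-2 were thus above S9-Pαhi in every S9-JAG1+ library, while Tbx6 was not called without S9-JAG1+ replicate 3 (0.88, adjusted p = 0.268) or S9-Pαhi replicate 1 (adjusted p = 0.104). Upk3b, of the coelomic lining, was called at 2.10, 0.210 and 0.515 against 0.249 CPM or less, with overlap, and not without S9-Pαhi replicate 1 or 2 (adjusted p = 0.182 and 0.171). On the endothelial list Erg was lower at 4.202 to 4.69 against 12.7 to 13.0 CPM (-1.52 ± 0.21). Flt1 and Pecam1 were called lower at 1.196 CPM or less with adjusted p-values of 0.0573 and 0.082. Flt1 was not called without S9-Pαhi replicate 1 or any S9-JAG1+ library (adjusted p between 0.11 and 0.234). Pecam1 was not called without S9-Pαhi replicate 2 or 3 or S9-JAG1+ replicate 1 or 2 (adjusted p between 0.149 and 0.275). The myoblast markers Lbx1 (-1.76 ± 0.32) and Met (-1.41 ± 0.16) were lower. Lbx1 was at 0.119 to 0.214 against 0.564 to 0.651 CPM, in S9-JAG1+ near the level of 3 counts, and Met at 1.47 to 1.9 against 3.44 to 5.15 CPM. Their means in the SCA-1-positive cells were 247.9 and 689.4 CPM. Of 19 immediate early genes, which cells induce during dissociation, 3 were called lower (Egr1, Fos and Zfp36) and 1 higher (Atf3). Egr1 was at 16.2, 24.8 and 17.4 CPM against 142.2, 56.4 and 29.5 CPM, and without S9-Pαhi replicate 1 its adjusted p was 0.188. Fos, with overlapping groups, was at -0.73 without that library and was lost without S9-JAG1+ replicate 1 or 3 too (-1.15 and -1.04), and Zfp36 was under the fold limit without it or without S9-JAG1+ replicate 1 (-1.16 and -1.13). What part cells of other tissues or dissociation had in the differences above was not tested.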

How the data were processed

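The deposited table holds raw counts of reads per Entrez gene for 14 libraries, which the authors made by aligning single-end reads to the mouse genome mm10 with STAR, keeping 1 position for reads with several, and counting reads that start in annotated exons with QuasR. Of 24454 rows 24374 were matched to RefSeq gene symbols by Entrez ID, and the 80 others hold 0.358% of the counts. Libraries were grouped by their labels. All 14 entered 1 fit in edgeR 4.0.16 (R 4.3.3), with TMM scaling, filterByExpr and no replicate block. The contrast was S9-JAG1+ minus S9-Pαhi. SE was calculated as the absolute log2 fold change divided by the square root of the quasi-likelihood F statistic. Named genes were Jag1 and Pdgfra, on which cells were sorted, and Hoxa13 and Tbx2, markers chosen with their directions known. They also included up to 12 called genes per direction with the largest fold change, no overlap and at least 1 log2 CPM on average. Added to these were up to 4 called genes per direction in each role of a list, and genes the study discusses. The members and lists were chosen with earlier results of these data known. Code was tested on simulated counts. Alternatives were DESeq2 1.42.0, other scalings, filters, thresholds and sets of libraries, thinned counts and a replicate block. Promoter windows came from RefSeq (GRCm38.p6). Some genes that meet the naming rule are not reported here by name.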

Additional observations from a re-analysis of the deposited data

How the results depend on the processing

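With no limit on the fold change 4243 genes were called, 1939 higher and 2304 lower. Under the other alternatives the counts of called genes in either direction stayed within 1.5 times those reported: with all 6 libraries kept, 860 genes were called with a filter at 1 CPM, 906 with the 6 libraries fitted alone, 1064 with DESeq2's Wald test and 1113 with no filter. Leaving out 1 library at a time gave 934 to 1129 called genes, 345 to 411 higher and 579 to 718 lower. Thinning all libraries to the smallest total gave 1030, of which 983 were among those reported. With a replicate block 904 genes were called in the 6 libraries and 1066 in the 14. Same-numbered libraries did not deviate together (correlations of -0.10, -0.00 and -0.13), so the numbers do not pair the samples. Across numbers, S9-JAG1+ replicate 1 correlated at 0.25 with S9-Pαhi replicate 3, replicate 2 at 0.21 with replicate 1, and replicate 3 at 0.22 with replicate 2. The remaining pairs were at -0.19 to -0.08. The replicate block followed the numbers and not these pairs, and whether such pools were prepared together was not tested. Of 190 named genes 173 were called, and 136 kept the call in every alternative that gave a value. The other 37 lost it when some 1 library was left out. The sign of 2 genes that were not called turned: Nog lay between -0.22 and 0.13 and Adamts12 between -0.46 and 0.01 when 1 library was left out, with 0.08 for Nog without S9-Pαhi replicate 1 or 2. The cause of these changes was not tested. Depth limits genes with few reads: 3 counts stand for 0.101 to 0.149 CPM.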

Other observations

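Small nucleolar RNAs, which guide the modification of ribosomal RNA and are mostly released from introns, were called higher for 6 of 43 tested and lower for none, against 2.58% and 4.42% of all tested genes. They were Snord49a (log2 fold change 2.07), Snord12 (1.99), Snord22 (1.68), Snora52 (1.67), Snora3 (1.42) and Snord35a (1.34). Their levels were low: Snord22, the highest, was at 3.17, 5.78 and 3.53 CPM in S9-JAG1+ and at 1.14, 1.77 and 0.947 CPM in S9-Pαhi. Poly(A) libraries hold such RNAs only in part. Of 676 tested long noncoding RNAs 25 were called higher (3.70%) and 42 lower (6.21%), near the 2.58% and 4.42% of all tested genes.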
